A study of Mus musculus with 2 samples.

Results

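NF-kB is a family of transcription factors, and 10 genes for its subunits and inhibitors are described here in regulatory T cells (Treg cells) of the mouse colon. Treg cells are CD4 T cells that restrain immune responses and depend on the transcription factor Foxp3. The genes are Nfkb1, Nfkb2, Rel, Rela and Relb, which encode the subunits, Nfkbia, Nfkbib, Nfkbid and Nfkbiz, which encode IkB proteins, and Tnfaip3, which encodes the ubiquitin-editing enzyme A20. They were selected by gene name from the 55246 loci of the deposited table, and all 10 were found. The RNA was that of Treg cells from the lamina propria of the colon (connective tissue under the epithelium) of female mice. The WT library is labelled wild type, and the Exon2KO library comes from mice labelled as lacking exon 2 of Foxp3 (Foxp3∆2). Strain, age, the sorting gate and the number of animals per library are not given in the sources used here. Each genotype has 1 library, so no difference between them could be set against a spread between replicates, and every interval below covers counting error only.

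NF-kB subunits bind DNA as pairs. In resting cells most pairs are held inactive by inhibitors. The products of Rela and Rel (c-Rel) pair mainly with the product of Nfkb1 in the canonical pathway, which antigen receptors, Toll-like receptors and many TNF receptors switch on. RelB pairs with the processed product of Nfkb2 in the non-canonical pathway. The kinase complex IKK marks IkB-alpha (Nfkbia) and IkB-beta (Nfkbib) for destruction. Several of the inhibitors are themselves induced by NF-kB and so close a feedback loop. IkBNS (Nfkbid) and IkB-zeta (Nfkbiz) are atypical IkB proteins that act in the nucleus, where they can repress or promote target genes. c-Rel is required for normal development of Treg cells in the thymus, and IkBNS promotes induction of Foxp3.

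The promoters of these genes are shown because the feedback runs through kappa-B sites, the DNA elements that NF-kB binds. RefSeq promoter windows (GRCm38.p6, 250 bases before to 50 after an annotated start) were matched by symbol for 7 of the 10 genes, Nfkb2, Rel, Rela, Nfkbia, Nfkbib, Nfkbid and Tnfaip3, with 12 windows in all. The kappa-B consensus (3 G, a purine, any 2 bases, 2 pyrimidines, 2 C) was searched on both strands, and overlapping matches were joined. It was found in 7 of the 12 windows, against 8.46% of all 32851 windows of the same length. By gene it was found in 5 of the 7, for which no share over all genes was counted. Windows 2 and 3 of Nfkb2 overlap and share a match. No match to these letters was present in the windows of Rela and Nfkbib. Below are the 250 bases before the start of Rel (chr11:23770970-23771219, minus strand), of Nfkbia (chr12:55492648-55492897, minus strand) and of the second start of Nfkbid (chr7:30422156-30422405, plus strand), and the last 100 bases before the first start of Tnfaip3 (chr10:19015411-19015510, minus strand). Each is written 5′ to 3′ on the strand of its gene, and capitals mark the matches.
Rel: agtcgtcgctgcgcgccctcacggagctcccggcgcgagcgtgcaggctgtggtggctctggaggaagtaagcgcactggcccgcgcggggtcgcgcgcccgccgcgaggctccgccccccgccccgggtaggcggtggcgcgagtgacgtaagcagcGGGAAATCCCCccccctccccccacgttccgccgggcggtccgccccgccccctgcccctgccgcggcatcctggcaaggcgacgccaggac
Nfkbia: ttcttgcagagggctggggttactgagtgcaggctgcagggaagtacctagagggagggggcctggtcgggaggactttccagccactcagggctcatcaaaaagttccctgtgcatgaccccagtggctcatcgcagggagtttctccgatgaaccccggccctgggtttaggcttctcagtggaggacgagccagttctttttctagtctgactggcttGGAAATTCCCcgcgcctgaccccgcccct
Nfkbid: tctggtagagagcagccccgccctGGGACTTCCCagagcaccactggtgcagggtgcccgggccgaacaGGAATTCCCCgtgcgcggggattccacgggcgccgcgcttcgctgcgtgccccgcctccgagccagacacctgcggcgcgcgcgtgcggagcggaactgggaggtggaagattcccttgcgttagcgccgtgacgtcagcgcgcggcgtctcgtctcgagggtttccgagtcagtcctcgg
Tnfaip3: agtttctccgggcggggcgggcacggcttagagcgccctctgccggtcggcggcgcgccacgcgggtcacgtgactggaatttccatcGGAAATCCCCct
The first base of the match lay 92 bases before the start of Rel and 29 bases before that of Nfkbia. In Nfkbid both matches belonged to the second of 3 annotated starts, at 226 and 181 bases before it, and the other 2 windows held none. The first window of Nfkb2 held the palindrome GGGAATTCCC at 39 bases and GGGGCTTTCC at 11 bases before the start. In Tnfaip3 a second match, GGGACACCCC, lay 125 bases before the first start, outside the stretch shown. A match describes the sequence and does not show that NF-kB binds there.

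Reads counted on genes numbered 16281133 in WT and 15412425 in Exon2KO. Each member had between 3402 and 66554 reads in a library, far above the minimum of 10 reads over both libraries that 17363 genes reached. The targeted gene, Foxp3, was at 6991 reads (WT) and 20946 reads (Exon2KO), and since these are counts over the whole gene they do not test the loss of 1 exon. All 10 markers of CD4 T and Treg cells had reads in both libraries, and 6 of them had a log2 ratio below 0 and 4 above it. In CPM (reads scaled to a common library size), their summed level was 9426 in WT and 12435 in Exon2KO, most of it Ctla4. Ctla4 had 79358 and 132229 reads (log2 ratio 0.71), and Foxp3 was the 1 marker past 2-fold higher (1.56). Cd3e (5154 and 5262 reads) and Cd4 (4593 and 5367) differed little, Trac was at 10741 and 8049, and past 2-fold lower were Cd5 (5894 and 2908; -0.94 on the log2 scale with total counts, short of 2-fold) and Ikzf2, which encodes Helios (8476 and 440). Markers of other cells were present as well. The summed CPM in WT and Exon2KO was 62420 and 53256 for 6 plasma cell genes, 133 and 97.1 for 6 B cell genes, and 78.7 and 254 for 8 epithelial genes. Most of the plasma cell sum came from Igkc, Igha and Jchain. Of the plasma cell genes 5 had a ratio below 0, whereas Sdc1 (510 and 1213 reads) was higher in Exon2KO. Of the epithelial genes Krt8 (160 and 1604 reads) and Krt19 (81 and 1430) were higher in Exon2KO, whereas Epcam (782 and 609) and Muc2 (41 and 21) were lower. The sum was 43.6 and 51.9 for 8 myeloid genes, with Itgax at 0 reads in both libraries, and 75.6 and 70.3 for 8 stromal and endothelial genes, with Cdh5 at 0 in WT. For 8 genes of CD8 T and NK cells it was 346 and 20.6, with Ncr1 at 0 in WT and Eomes at 0 in Exon2KO, and most of the WT value came from Gzma (5153 and 164 reads). For 5 gamma-delta T cell genes it was 10.1 and 70.3, most of it Tcrg-C1 (123 and 1034 reads), while Trdc was at 14 and 13 reads and Trdv4 at 15 and 1. The genes described here are also expressed in several of these cell types, and the part of such cells in the differences below was not tested. In bulk RNA, fewer cells of a type and less RNA per cell cannot be told apart.

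Within each library Nfkbia stood far above the other 9 genes. Levels of different genes are compared here in FPKM, the deposited reads scaled to gene length and to the size of the library. Nfkbia was at 2621 FPKM in WT and 1874 in Exon2KO, which placed it 13th and 21st in the whole table. Tnfaip3 followed in both libraries, at 223 and 158 FPKM. In WT the order continued with Nfkbid (184 FPKM), Nfkbib (156), Nfkb2 (150), Nfkbiz (113), Rela (108), Relb (99.4), Rel (54.7) and Nfkb1 (41.6). In Exon2KO it was Nfkb2 (141), Nfkbib (140), Relb (103), Nfkbid (97.6), Rela (93.7), Nfkbiz (58.8), Nfkb1 (47.1) and Rel (28.6). Nfkbid thus took place 3 in WT and place 6 in Exon2KO, and Rel and Nfkb1 exchanged the last 2 places. Counting intervals of neighbours overlapped for Nfkbib and Nfkb2 in both libraries, for Nfkbiz and Rela in WT, and for Nfkbid and Rela in Exon2KO. The order depends on the deposited gene lengths, of which that of Nfkb1, 12061 bases, is the longest of the 10. The ratio of a gene between the libraries does not depend on its length.

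**Figure D1:**
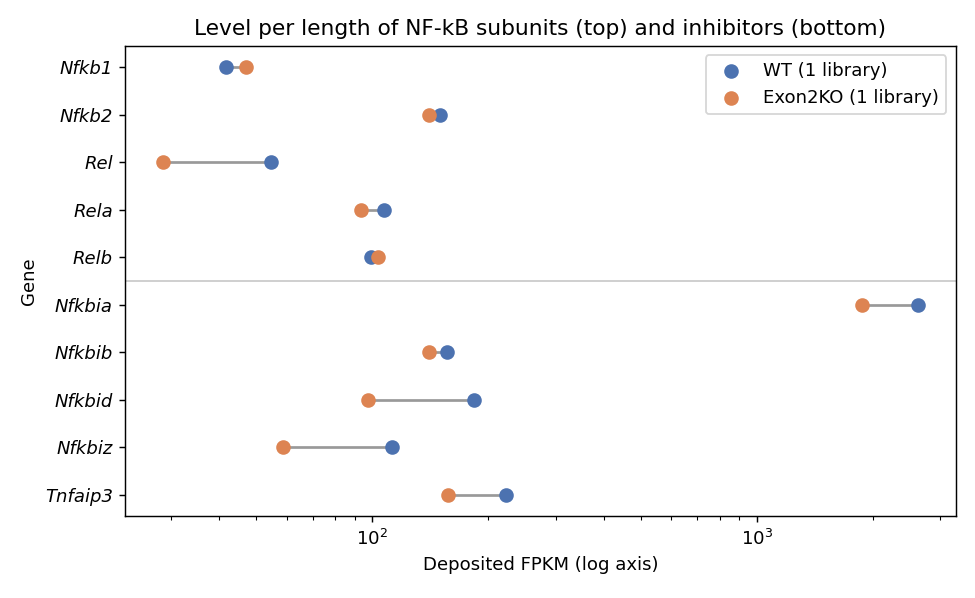
Deposited FPKM of each gene on a log axis, with 1 point per library (blue WT, orange Exon2KO) and subunits above the grey line. Nfkbia lies at 2621 and 1874 FPKM, apart from all others, and the distance between the points is widest for Rel, Nfkbid and Nfkbiz.

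Rel, Nfkbid and Nfkbiz were about 1.9-fold lower in the Exon2KO library, Nfkbia and Tnfaip3 were about 1.4-fold lower, and Rela, Relb, Nfkb1, Nfkb2 and Nfkbib lay between -0.21 and 0.17 on the log2 scale (Exon2KO over WT). This grouping describes the values and was not tested. In the order of the ratios, counting intervals were apart between Rela and Nfkbia and between Tnfaip3 and Nfkbid. The last 5 genes also differed among themselves beyond counting error (Nfkb1 from Relb, and Relb from Nfkb2). None of the 10 reached a 2-fold difference in either direction, against 17.5% of all genes tested (9.38% higher and 8.14% lower). At a 1.5-fold threshold 3 of the 10 were lower, against 15.2% of genes tested, and 0 were higher, against 16.8%. Genes with few reads scatter more, and among the 2748 genes with a mean of at least 1000 reads, as all 10 have, 8.77% were at least 1.5-fold lower and 3.86% higher, and 3.38% were at least 2-fold lower and 1.31% higher. The median log2 ratio, Exon2KO over WT, was -0.36 for the 10 genes, 0.0035 for all genes tested and -0.06 for the genes with a mean of at least 1000 reads. The 95% counting interval of the log2 ratio lay below 0 for 8 genes, above 0 for Nfkb1, and held 0 for Relb. With libraries scaled by total counts Nfkb2 was at -0.0006 and Relb at 0.15, so the calls for Nfkb2 and Relb depend on the scaling. Counting intervals are narrow at this depth. They lay below 0 for 24.6% and above 0 for 22.8% of all genes tested, and for 46.3% and 27.5% of those with a mean of at least 1000 reads.

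**Figure D2:**
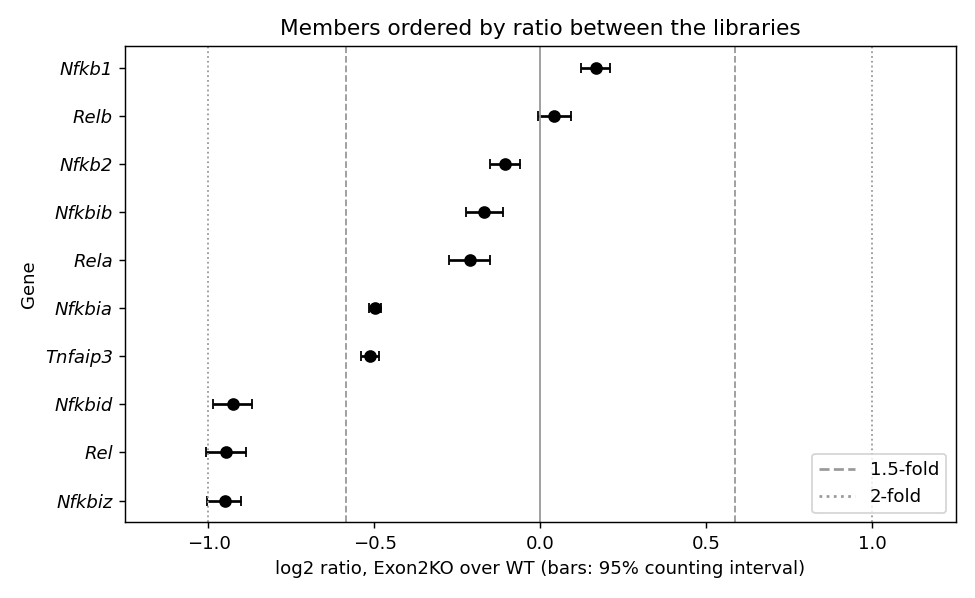
Log2 ratio of each gene, Exon2KO over WT, with bars for the 95% counting interval and lines at 1.5-fold (dashed) and 2-fold (dotted). Rel, Nfkbid and Nfkbiz lie between -0.95 and -0.93, Tnfaip3 and Nfkbia at -0.51 and -0.50, and the other 5 genes between -0.21 and 0.17.

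Among the subunits, Rel was the one with a large difference. Rel (ENSMUSG00000020275, chromosome 11, 23736847 to 23770970, minus strand), which encodes c-Rel, had 6439 reads in WT and 3402 in Exon2KO, or 410 and 213 CPM. Its log2 ratio was -0.95 (95% interval -1.01 to -0.89), a 1.93-fold lower level in Exon2KO (1.85 to 2.01). Of all genes tested, 8.71% had a ratio as low or lower, and of those with a mean of at least 1000 reads 3.89%. Rela (ENSMUSG00000024927, chromosome 19, 5637483 to 5648130, plus strand), the main activating partner in most cells, had 4610 and 4049 reads, or 294 and 253 CPM, and a log2 ratio of -0.21 (-0.28 to -0.15). Rel relative to Rela, a ratio of 2 genes within a library that does not depend on how libraries are scaled, was 0.508 in WT and 0.306 in Exon2KO in FPKM. On reads, this ratio in Exon2KO was 0.602 of that in WT (exact 95% interval 0.567 to 0.639).

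The other 3 subunits differed little between the libraries. Nfkb1 (ENSMUSG00000028163, chromosome 3, 135584655 to 135691547, minus strand), whose precursor also acts as an inhibitor before it is processed, had 7916 and 9047 reads in WT and Exon2KO, or 504 and 566 CPM. It was the only one of the 10 whose interval lay above 0, at a log2 ratio of 0.17 (0.12 to 0.21). Rel relative to Nfkb1, its usual partner, went from 1.31 in WT to 0.607 in Exon2KO in FPKM, and on reads to 0.462 of the WT ratio (0.439 to 0.487). For the non-canonical pair, Nfkb2 (ENSMUSG00000025225, chromosome 19, 46304737 to 46312090, plus strand) had 7777 and 7359 reads, or 496 and 460 CPM, at a log2 ratio of -0.11 (-0.15 to -0.06). Relb (ENSMUSG00000002983, chromosome 7, 19606217 to 19629438, minus strand) had 6091 and 6388 reads, or 388 and 400 CPM, at 0.04 (-0.01 to 0.09). At this depth a difference of Relb was not detectable, and its interval excludes one of 0.1 or more on the log2 scale under this scaling; scaled by total counts it was at 0.15. Relb relative to Rel was 1.82 in WT and 3.61 in Exon2KO in FPKM, and on reads it was 1.98 times the WT ratio (1.88 to 2.10).

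As a share of the summed FPKM of the 5 subunits, Rel held 12.1% in WT and 6.93% in Exon2KO. The sum itself was 453 FPKM in WT and 413 in Exon2KO. Nfkb2 had the largest share in both libraries, 33.1% and 34.0%, and Rela held 23.7% and 22.7%. The share of Relb was 21.9% and 25%, and that of Nfkb1 9.18% and 11.4%. Transcript shares per length do not measure protein pairs.

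**Figure D3:**
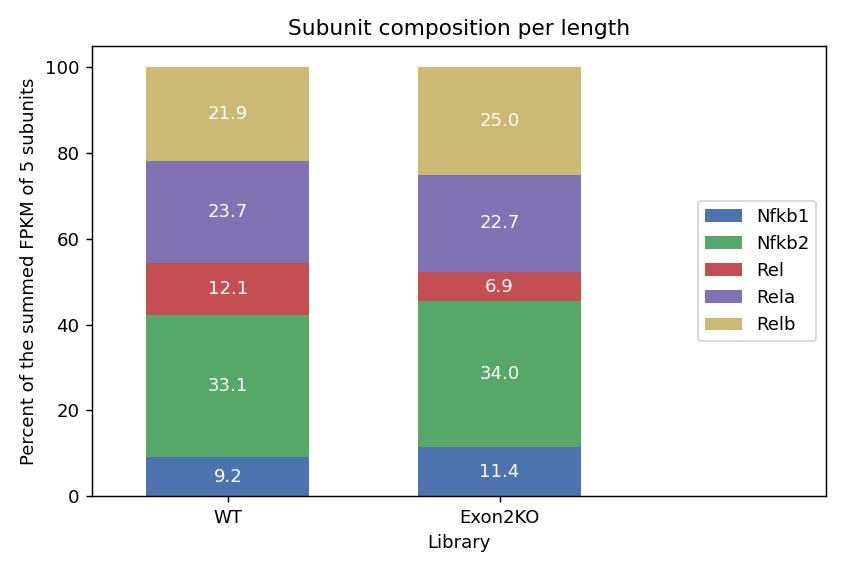
Share of each subunit gene in the summed deposited FPKM of the 5 subunits, in percent, with 1 bar per library. Rel narrows from 12.1% in WT to 6.9% in Exon2KO, and each of the other 4 shares differs by at most about 3 percentage points.

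Nfkbid and Nfkbiz, which encode nuclear IkB proteins, had ratios like that of Rel. Nfkbid (ENSMUSG00000036931, chromosome 7, 30421732 to 30428746, plus strand), which encodes IkBNS, had 6802 WT reads and 3643 Exon2KO reads, or 433 and 228 CPM. Its log2 ratio was -0.93 (-0.99 to -0.87), a 1.90-fold lower level (1.83 to 1.98). Nfkbiz (ENSMUSG00000035356, chromosome 16, 55811375 to 55838899, minus strand), which encodes IkB-zeta, a cofactor for secondary response genes such as Il6, had 8911 and 4693 reads, or 568 and 294 CPM. Its log2 ratio was -0.95 (-1.003 to -0.90), a 1.93-fold lower level (1.87 to 2.00). Relative to each other these 3 genes kept their proportions within counting error. On reads, the ratio in Exon2KO was 1.01 of that in WT for Nfkbid to Rel (0.956 to 1.08), 0.997 for Nfkbiz to Rel (0.944 to 1.05) and 0.983 for Nfkbiz to Nfkbid (0.932 to 1.04). With 1 library per genotype, ratios of equal size do not show that the genes share control.

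Of the classical inhibitors, Nfkbia differed and Nfkbib hardly did. Nfkbia (ENSMUSG00000021025, chromosome 12, 55489410 to 55492647, minus strand), the rapidly resynthesised IkB-alpha, had 66554 reads in WT and 47991 in Exon2KO, or 4241 and 3002 CPM. Its log2 ratio was -0.50 (-0.52 to -0.48), a 1.41-fold lower level (1.40 to 1.43). A ratio as low or lower was found in 17.7% of all genes tested and in 11.4% of those with a mean of at least 1000 reads. Nfkbib (ENSMUSG00000030595, chromosome 7, 28758251 to 28767512, minus strand), which encodes IkB-beta, an inhibitor less responsive to NF-kB itself, had 5348 and 4846 reads, or 341 and 303 CPM, at a log2 ratio of -0.17 (-0.23 to -0.11). Nfkbib relative to Nfkbia was 0.0596 in WT and 0.0750 in Exon2KO in FPKM, and on reads 1.26 times the WT ratio (1.21 to 1.31). The summed FPKM of the 4 IkB genes was 3074 in WT and 2170 in Exon2KO, of which Nfkbia made up 85.3% and 86.3%. Divided by the summed FPKM of the subunits, this gave 6.78 in WT and 5.25 in Exon2KO.

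Tnfaip3 (ENSMUSG00000019850, chromosome 10, 19000910 to 19015657, minus strand), whose product A20 removes and edits ubiquitin chains upstream of IKK, had 25425 reads in WT and 18152 in Exon2KO, or 1620 and 1135 CPM. Its log2 ratio was -0.51 (-0.54 to -0.49), a 1.43-fold lower level (1.40 to 1.45). A ratio as low or lower was found in 17.2% of all genes tested and in 11.0% of those with a mean of at least 1000 reads. Tnfaip3 stood in the same proportion to Nfkbia in both libraries, 0.0851 in WT and 0.0843 in Exon2KO in FPKM. On reads this was 0.990 of the WT ratio (0.968 to 1.01). Tnfaip3 relative to Rel, in contrast, was 1.35 times the WT ratio (1.29 to 1.41). Among all 45 pairs of the 10 genes, the exact interval held an unchanged ratio for 6. These were the 3 pairs of Rel, Nfkbid and Nfkbiz, the pair of Nfkbia and Tnfaip3, and Nfkbib with Rela and with Nfkb2.

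The authors' deposited table gives log2 fold changes for the 10 genes that run from -0.95 for Nfkbiz to 0.17 for Nfkb1. Its adjusted p-values were 0.227 for Rel and for Nfkbiz, 0.248 for Nfkbid, 0.79 for Tnfaip3, 0.81 for Nfkbia and 1 for the other 5 genes in the authors' deposited table, so 0 of the 10 were below 0.05, against 4.58% of the 22447 genes with such a value there. With 1 library per genotype these p-values cannot rest on a measured spread between replicates. In the table, 3 of the genes overlap other loci. Gm43430 lies inside Nfkb1 on the same strand (738 and 607 reads in WT and Exon2KO), Psd meets the end of Nfkb2 on the opposite strand (978 and 1140), and Sirt2 overlaps the start of Nfkbib on the opposite strand (1631 and 1770), with Ccer2 at its end (2 and 0). Reads in shared sequence of these genes are uncertain, because the use of strand is not given in the sources used here.

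Around these 10 genes, the 7 lists of other pathway genes also had medians below 0, though with total counts that of the A20 partners was only -0.03. The lists were written with earlier results of these data known, and the counts are read beside the 9.38% higher and 8.14% lower of all genes tested. Of 4 further IkB-like genes, 3 had enough reads and none passed 2-fold. Bcl3, an atypical IkB protein that binds the products of Nfkb1 and Nfkb2, had 4587 reads in WT and 3392 in Exon2KO (log2 ratio -0.46, -0.53 to -0.40). Nfkbie, which encodes IkB-epsilon, had 2598 and 1735 (-0.61, -0.70 to -0.52).

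None of the 12 genes of the IKK complex and its upstream kinases and adaptors passed 2-fold, with a median log2 ratio of -0.21. Summed over both libraries, the most reads fell on Tank (7466 and 6106 reads, -0.32) and Chuk, which encodes the kinase IKK-alpha (1546 and 1684 reads, 0.10). At 1.5-fold, 1 gene of this list was higher and 2 were lower, beside 16.8% and 15.2% of all genes tested. Counts so small are near those shares and are not read as a result about the list. These 3 genes are named after their values were seen. Tab2, an adaptor of the kinase TAK1, had 687 and 1077 reads (0.62, 0.48 to 0.76), Ikbkb, which encodes IKK-beta, 1325 and 826 (-0.71, -0.84 to -0.58), and Ikbke 738 and 433 (-0.79, -0.97 to -0.62). Among 8 genes of the antigen receptor input, 1 was 2-fold higher and 1 lower, with a median of -0.27. The higher one was Malt1, a protease and scaffold upstream of IKK, with 1420 and 2901 reads and a log2 ratio of 1.00 (0.91 to 1.10), at the threshold itself. The lower one was Prkcb, a protein kinase C gene, with 622 and 244 reads (-1.37, -1.60 to -1.16). Lck (11247 and 8826 reads, -0.38) and Cd28 (9899 and 8004, -0.33) had the most reads of this list over both libraries.

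Of 15 genes for TRAF, IAP and RIPK adaptors, 0 were 2-fold higher and 2 lower, with a median of -0.32. Both of the lower genes act where TNF receptors meet the pathway, a trait that follows from how the list was chosen. Traf1, an adaptor that is itself an NF-kB target, had 21554 reads in WT and 10818 in Exon2KO (-1.02, -1.05 to -0.99), and Birc2, which encodes the ubiquitin ligase cIAP1, had 3450 and 1669 (-1.07, -1.16 to -0.99). With libraries scaled by total counts these were at -0.92 and -0.97 and no longer past 2-fold. Birc3, which encodes the related cIAP2, had 6015 and 4574 reads (-0.42, -0.48 to -0.37). Among 15 partners of A20 and other brakes on the pathway, 1 was 2-fold higher and 1 lower, with a median of -0.14. Otud7b, a deubiquitinase, had 109 and 232 reads (1.05, 0.73 to 1.40), and Usp18, an interferon-induced protease, had 520 and 190 (-1.47, -1.73 to -1.24). The A20-binding genes Tax1bp1 (6245 and 5786 reads, -0.14) and Tnip1 (2624 and 3007, 0.17) were close to WT.

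Of 23 genes for receptors and receptor-proximal proteins that signal to NF-kB, 3 were 2-fold higher and 7 lower (6 with total counts, where Il18rap was at -0.99), with a median of -0.29. Il1rl1, the receptor for IL-33, had 5655 reads in WT and 676 in Exon2KO (-3.09, -3.21 to -2.98), Cd40 had 137 and 23 (-2.50, -3.31 to -1.96), and Tnfrsf9 had 76314 and 25252 (-1.62, -1.64 to -1.60). Il1r1, the receptor for IL-1, went the other way, with 164 and 824 reads (2.29, 2.06 to 2.55). Of 26 textbook NF-kB targets, 25 had enough reads, of which 2 were 2-fold higher and 8 lower, with a median of -0.40. Cd83 had 14958 and 1518 reads (-3.33, -3.40 to -3.25), Ebi3 944 and 191 (-2.32, -2.56 to -2.11) and Myc 1631 and 460 (-1.85, -2.01 to -1.70). The 2 higher targets were Ccl20, which encodes the ligand of CCR6, with 1031 and 16679 reads (3.99, 3.90 to 4.08), and Il6, with 11 and 94 (2.86, 2.16 to 4.12), named after its value was seen. Many of these targets answer to other factors as well, and Cd40 is a B cell and myeloid gene while Ccl20 is also made by epithelium, whose summed markers are given above and whose part was not tested.

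**Figure D4:**
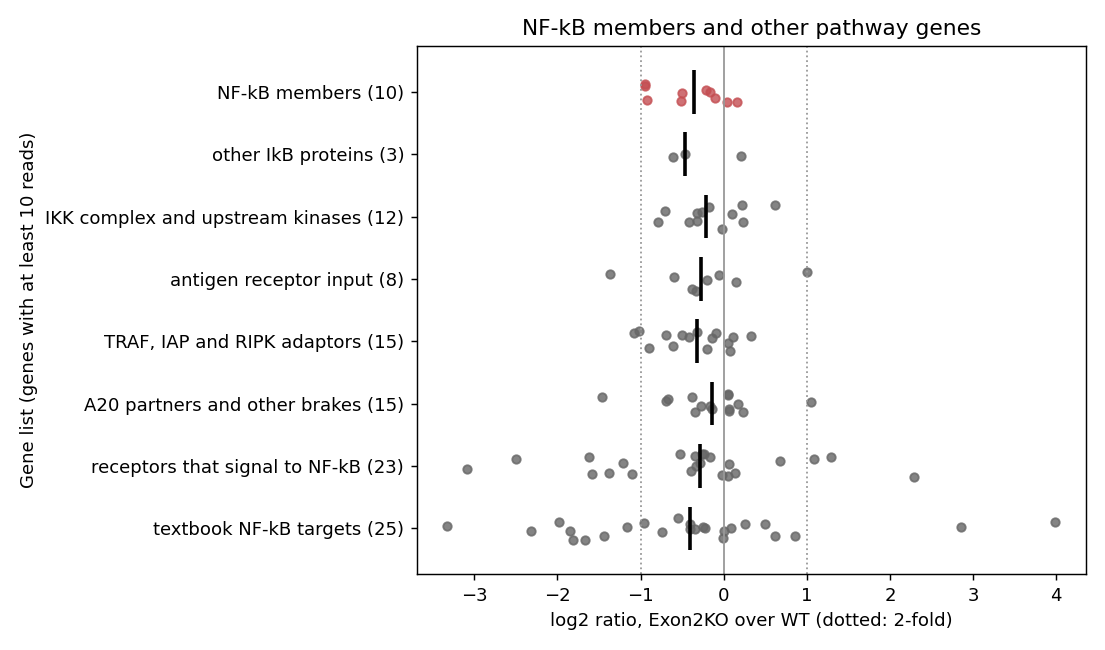
Log2 ratio, Exon2KO over WT, of every gene with at least 10 reads in the 10 NF-kB genes (red) and 7 other pathway lists (grey), with a black bar at each list's median and the number of genes in brackets. The 10 NF-kB genes stay inside the 2-fold lines, while receptors and targets spread from -3.33 to 3.99.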

How the data were processed

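RNA was sequenced from colonic lamina propria Treg cells, 1 WT and 1 Exon2KO library. The submitters' processing notes name HISAT2 2.0.5, StringTie 1.3.3b, featureCounts 1.5.0-p3, DESeq2 1.16.1 and the build mm10, without roles. The deposited table holds unnormalised read counts by gene from the authors, together with FPKM values, a scaled count signal (not used) and their own log2 fold changes with p-values. The deposited coordinates of 9 of the 10 members equal those of GENCODE M21 (GRCm38), and those of Nfkb2 differ; coordinates are as deposited.

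Library sizes were scaled by TMM with edgeR 4.0.16 in R 4.3.3. A prior count of 2 entered each log2 ratio. The 95% interval was computed without it, from the Clopper-Pearson interval of a gene's Exon2KO share. Ratios of 2 genes have exact conditional intervals of the odds ratio. Genes needed 10 reads in all, and a gene was called at a difference of 2-fold or more. With 1 library per genotype no test between genotypes was made. Reads carry no molecular identifiers here, so they may repeat 1 molecule. Reads of this comparison (17363 genes) were simulated with counting error alone (Poisson). Of the intervals of unchanged genes with 100 or more expected reads, 95.2% held the true ratio. The intervals assume the same error, so this checks the computation and not the spread of real reads. Python 3.11.15 with numpy 2.4.6, pandas 2.3.3 and scipy 1.17.1 was used, and DESeq2 1.42.0 for alternative size factors. A search of proteins was planned and not run.

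The members and lists were chosen with earlier results of these data known. All 10 members are named. In each pathway list up to 4 called genes are named, by size of ratio among those that reach 100 reads in a library, then the uncalled ones with the most reads. The counts and the median of the antigen receptor list cover 8 genes and leave out a gene that is not reported here.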

Additional observations from a re-analysis of the deposited data

How the results depend on the processing

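No member passed 2-fold in either direction under any of the 5 other scalings. The prior counts of 0.5 and 5 and the fold threshold of 4 could not have changed this. Each member has at least 3402 reads in a library, and a gene short of 2-fold cannot reach 4-fold. A fold threshold of 1.5 gave 3 lower members (Rel, Nfkbid and Nfkbiz). Scaling by total counts moved the median log2 ratio of the members to -0.25 and that of all genes tested from 0.0035 to 0.108. A change of scaling shifts all genes almost equally, so the distance between members and all genes is no check. With total counts Nfkb2 came to -0.0006 and Relb to 0.15. Of 70 member values under 7 alternatives, 59 stayed within the counting interval, 11 moved and 0 changed sign. Over all genes, 2643 were higher and 2844 lower with no filter on reads, 649 and 685 with at least 50 reads, 2922 and 2647 at a fold of 1.5, and 499 and 408 at a fold of 4, against 1628 and 1413. The order of the members by level was the same with values recomputed from counts and gene length. No paired analysis was possible because the genotypes have only 1 library each, and for the same reason no library could be left out. Depth limited no member: the widest counting interval was 0.06 to either side on the log2 scale. The spread between animals was not measured.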
